A study of Drosophila melanogaster with 9 samples.

Results

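The genes described here are CecB, DptB, AttD and Drs, 4 genes for antimicrobial peptides of the fruit fly. They were taken as the genes of those symbols in the platform annotation, and each had 1 probe set of its own, 4 of the 17899 probe sets outside the controls and 4 of 11573 named genes. Expression was measured in Drosophila melanogaster S2 cells, a cultured macrophage-like line of embryonic origin, on 9 single-colour Affymetrix arrays. There were 3 groups of 3 arrays: cells with no treatment, cells given double-stranded RNA (dsRNA) against beta-galactosidase (LacZ) for 72 h as a mock treatment, and cells given dsRNA against NELF-B and NELF-E for 72 h. All groups were of the same line, grown in medium with serum. The comparisons ask how messenger RNA levels differ when NELF, a factor that holds RNA polymerase II just downstream of promoters, is depleted.

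Antimicrobial peptides are small defence proteins of the fly's innate immunity. In infected flies they come mainly from the fat body, and hemocytes and hemocyte-like lines such as S2 make them as well. Their genes are switched on by the Imd pathway, which senses bacterial peptidoglycan and acts through the NF-kappaB factor Relish, and by the Toll pathway, which acts through Dorsal and Dif. CecB encodes a cecropin, a helical peptide that disrupts bacterial membranes, DptB a diptericin and AttD an attacin, glycine-rich peptides directed mainly at Gram-negative bacteria. All 3 families are known as outputs mainly of Imd. Drs encodes drosomycin, an antifungal peptide known as the standard reporter of Toll in the adult fly.

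Values are log2 intensities as the authors deposited them, so a difference of 1 is a doubling on this scale. Arrays of a group correlated at 0.955 to 0.971 and arrays of different groups at 0.943 to 0.967, over the 9266 probe sets with a value on every array. Measured probe sets ranged from 13854 to 14196 an array, with the fewest on NELF dsRNA array 3 and, among the LacZ dsRNA arrays, on array 1 (13935). NELF-B stood between 7.16 and 7.63 on the 6 control arrays and between 4.54 and 4.83 on the NELF dsRNA arrays. Nelf-E stood between 7.48 and 7.98 on the control arrays and at 2.52, 3.65 and 3.82 after NELF dsRNA. Only 1 of these 3 values exceeded the detection limit of 3.77 set by the control probe sets. Of 12 listed hemocyte markers 9 lay above that limit on at least 2 untreated arrays. He, NimC1 and Sr-CI, which are hemocyte markers too, did not. None of the 3 tested fat body markers did, nor did the 1 tested midgut and the 1 tested muscle marker. All 5 tested lamellocyte markers did, as did 2 of 4 germline markers (vas and aub). So did 1 of 3 neuron markers (elav) and 1 of 3 crystal cell markers (PPO2). The summed linear level of the 12 hemocyte markers ranged from 8343 to 8563 on untreated, 8129 to 8342 on LacZ dsRNA and 7682 to 7756 on NELF dsRNA arrays, with 1 marker called higher and 2 lower against LacZ dsRNA. Of 5 tested lamellocyte markers 1 was called higher and 1 lower there. Of all probe sets tested 1.85% were called higher and 2.71% lower. The genes called were SPARC, eater and Pxn among the hemocyte markers and cher and ItgaPS4 among the lamellocyte markers. The sum of 3 crystal cell markers was low, from 29.0 to 50.6 on untreated, 30.6 to 48.6 on LacZ dsRNA and 19.6 to 31.4 on NELF dsRNA arrays, with none called. Markers below the detection limit are part of these sums, and an empty value added nothing to them. The part of these marker differences in the results below was not tested.

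CecB and DptB fell after NELF dsRNA. Each lost more than a log2 unit against LacZ dsRNA and against untreated cells, and their NELF dsRNA arrays lay below every control array. AttD fell against untreated cells, by less, and did not pass against LacZ dsRNA. Drs was lower on average in both comparisons but passed in neither. All 4 genes lay above the detection limit on all 9 arrays, so each mean rests on 3 measured values. In bulk samples such as these, fewer cells making a transcript and less transcript in each cell cannot be told apart.

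CecB, the cecropin gene, measured 7.66, 7.36 and 7.64 on untreated arrays 1, 2 and 3. After LacZ dsRNA it measured 7.33, 7.02 and 7.08, and after NELF dsRNA 6.11, 5.89 and 6.08. The 3 groups did not overlap: every LacZ dsRNA array lay below every untreated array, and every NELF dsRNA array lay below the lowest LacZ dsRNA array, with a gap of 0.92. Against LacZ dsRNA it fell 2.17-fold (log2 change -1.12, SE 0.14, limma adjusted p = 8.93e-05). Against untreated cells the fall was 2.88-fold (log2 change -1.53, SE 0.14, limma adjusted p = 3.36e-06). The step from untreated to LacZ dsRNA, a log2 change of -0.41 (95% interval -0.70 to -0.12), did not pass over all probe sets (limma adjusted p = 0.30). CecB was 1 of the 4 genes whose LacZ dsRNA arrays all lay below the untreated ones, as they did for 10.2% of the probe sets tested. The cecropin genes are alike in sequence, and how far their transcripts share this probe set was not tested.

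DptB, the diptericin gene, measured 7.68, 7.72 and 7.65 on the untreated arrays, within 0.07 of each other. The LacZ dsRNA arrays spread wider, at 7.90, 7.25 and 7.16, with array 1 above all untreated arrays and the other two below them. After NELF dsRNA the values were 6.00, 6.49 and 6.20, the highest of them 0.67 below the lowest LacZ dsRNA array. The fall was 2.31-fold against LacZ dsRNA (log2 change -1.21, SE 0.18, limma adjusted p = 0.00053). Against untreated cells it was 2.73-fold (log2 change -1.45, SE 0.18, limma adjusted p = 7.81e-05). Between the control groups the log2 change, LacZ dsRNA minus untreated, was -0.24 (95% interval -0.62 to 0.13, limma adjusted p = 0.68). It was -0.48 without LacZ dsRNA array 1, -0.15 without array 2 and -0.10 without array 3.

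AttD, the attacin gene, gave 8.27, 8.37 and 8.45 on the untreated arrays. It gave 8.37, 7.96 and 7.76 after LacZ dsRNA and 7.50, 7.65 and 7.81 after NELF dsRNA. The NELF dsRNA arrays lay below the untreated ones with a gap of 0.46 but overlapped the LacZ dsRNA group, where array 3 was lower than NELF dsRNA array 3. Against untreated cells AttD fell 1.64-fold (log2 change -0.71, SE 0.13, limma adjusted p = 0.0039). That call was lost without the mean-variance trend in limma (adjusted p = 0.091) and with missing and very low values set to a floor (adjusted p = 0.066). Against LacZ dsRNA the log2 change was -0.37 (95% interval -0.66 to -0.09, limma adjusted p = 0.17). LacZ dsRNA stood between the other groups, at -0.34 against untreated cells (95% interval -0.62 to -0.05, limma adjusted p = 0.40), so neither neighbouring step in this order passed while the whole span did. The value between the control groups was -0.51 without LacZ dsRNA array 1 and -0.20 without array 3.

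Drs, the drosomycin gene, gave 6.47, 6.75 and 6.71 in untreated cells. The LacZ dsRNA arrays read 7.07, 6.39 and 6.71 and the NELF dsRNA arrays 6.15, 6.48 and 5.90. NELF dsRNA array 2 lay above LacZ dsRNA array 2 and just above untreated array 1, so the groups overlapped in every comparison. The log2 change was -0.55 against LacZ dsRNA (95% interval -0.95 to -0.14, limma adjusted p = 0.15). Against untreated cells it was -0.47 (95% interval -0.88 to -0.06, limma adjusted p = 0.20). From untreated to LacZ dsRNA it was 0.08 (95% interval -0.33 to 0.48, limma adjusted p = 0.93), and the sign of this small difference turned in 3 of 17 alternative settings, without LacZ dsRNA array 1 among them (-0.10).

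**Figure D1:**
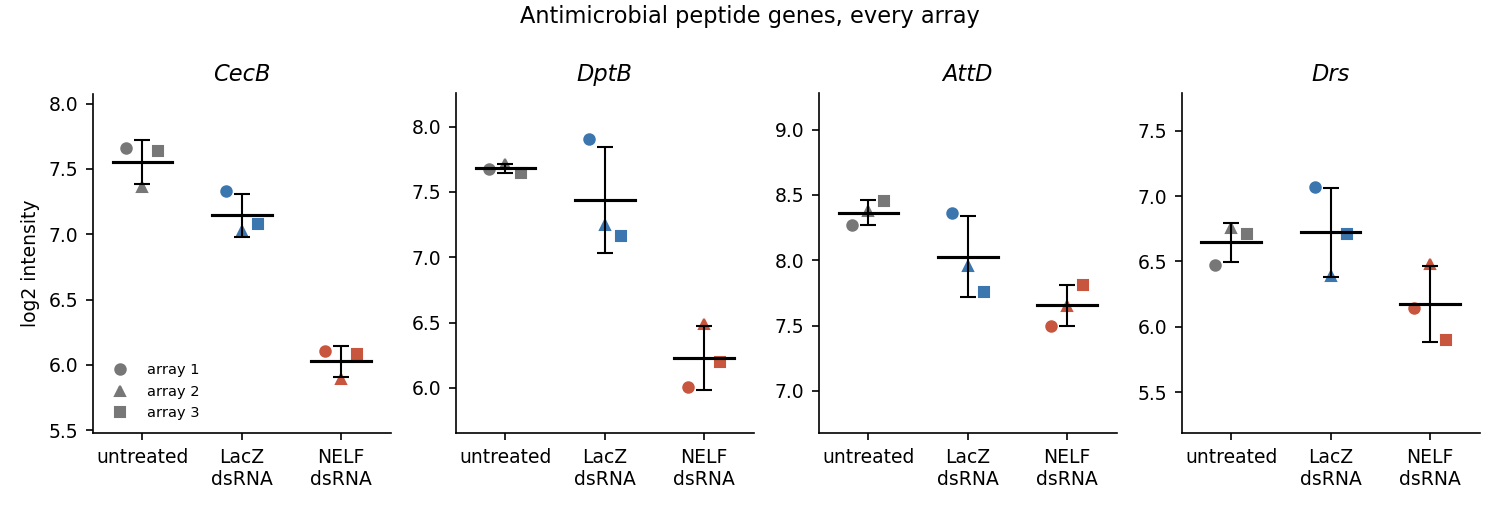
The log2 intensity of CecB, DptB, AttD and Drs on each array (points, shaped by array number) in untreated, LacZ dsRNA and NELF dsRNA cells, with the group mean and SD (bars, n = 3). Each panel spans the same number of log2 units; CecB and DptB show a gap between the NELF dsRNA arrays and all 6 controls, while AttD and Drs overlap the LacZ dsRNA arrays.

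In the order of group means CecB, DptB and AttD were highest in untreated cells, intermediate after LacZ dsRNA and lowest after NELF dsRNA, and Drs was highest after LacZ dsRNA. No step between untreated and LacZ dsRNA passed for any of the 4 genes. At an unadjusted p under 0.05 that comparison held 2 of them, CecB and AttD, and 10.4% of all probe sets tested. Over all 12974 probe sets tested there, 0.00771% were called lower, 0.0462% higher and 0.054% in either direction.

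In NELF dsRNA against LacZ dsRNA 2 of the 4 genes were called lower and none higher, where 2.71% of all 12975 probe sets tested were called lower, 1.85% higher and 4.56% in either direction. At an unadjusted p under 0.05 all 4 genes passed in this comparison and in that with untreated cells, as did 14.9% and 17.6% of all probe sets tested. The median log2 change of the 4 genes against LacZ dsRNA was -0.83, beside 0.01 over all probe sets tested. In NELF dsRNA against untreated cells 3 of 4 were called lower, where 3.53% of 12973 were, with 2.63% called higher and 6.16% in either direction, and the median was -1.08 beside 0.00267 over all tested. Groups that did not overlap, with NELF dsRNA below, were found for 2 of 4 genes against LacZ dsRNA and 3 of 4 against untreated cells. The share of all tested probe sets with that property was 11.5% and 14.4%. The 2 comparisons share the NELF dsRNA arrays. The 4 genes were chosen with earlier results of these data known. Their distance from the shares and medians of all probe sets can therefore follow in part from that choice.

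In NELF dsRNA against LacZ dsRNA 123 of the 352 probe sets called lower had a larger fall than CecB and 103 a larger fall than DptB. Against untreated cells the numbers were 91 and 101 of 458, and 235 for AttD. By unadjusted p, 110 of all tested probe sets ranked ahead of CecB against LacZ dsRNA and 167 ahead of DptB.

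**Figure D2:**
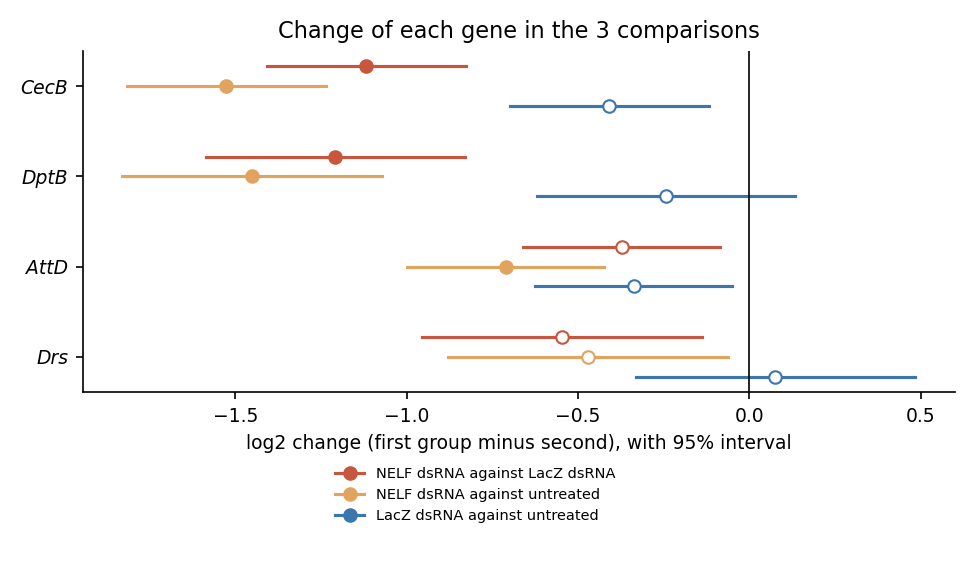
The log2 change of each gene (points) with its 95% interval (lines) from the limma fit over 9 arrays, for NELF dsRNA against LacZ dsRNA, NELF dsRNA against untreated and LacZ dsRNA against untreated cells. Filled points passed at an adjusted p of 0.05; only CecB and DptB passed against LacZ dsRNA, and no gene passed between the control groups.

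The 4 genes also differed in how much they scattered between arrays of a group. The SD within groups, pooled over the 3 groups, was 0.15 for CecB, 0.21 for AttD, 0.27 for DptB and 0.27 for Drs. Among 4104 probe sets with a mean between 6 and 9 and a value on every array, the median was 0.13. DptB and Drs scattered more than 94.6% and 94.5% of those probe sets, AttD more than 84.8% and CecB more than 61.2%.

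Much of the scatter in DptB, AttD and Drs lay in the LacZ dsRNA group, where array 1 was the highest for all 4 genes. Of all 9266 probe sets with a value on every array, 36.0% had their highest LacZ dsRNA value on that array and 42.0% their lowest. The untreated and NELF dsRNA groups showed no such common order, with each array the highest for at least 1 of the 4 genes. Without LacZ dsRNA array 1 the log2 changes against LacZ dsRNA were -1.02 for CecB (limma adjusted p = 0.00056), -0.98 for DptB (0.00095), -0.20 for AttD (0.36) and -0.37 for Drs (0.33). Without LacZ dsRNA array 3 AttD passed, at -0.51 (limma adjusted p = 0.045), making 3 of 4 genes called. Without both LacZ dsRNA array 1 and NELF dsRNA array 3, the arrays with the fewest measured probe sets in their groups, CecB stood at -1.05 and DptB at -0.96, both called, and Drs moved to -0.23 (limma adjusted p = 0.59).

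Whether the genes responded by different amounts was tested on the difference of 2 genes within each array, which cancels a constant offset between their probe sets. The 3 NELF dsRNA arrays were set against the 6 control arrays in all 6 pairs. CecB and DptB shifted by like amounts: CecB minus DptB averaged -0.20 ± 0.36 (SD, n = 3) after NELF dsRNA and -0.21 ± 0.22 (SD, n = 6) in the controls, a shift of 0.01 (two-sided exact permutation test, p = 1). AttD and Drs did so as well, with a shift of -0.03 (exact permutation p = 0.88). These 2 tests do not show equal responses, since 9 arrays leave room for differences of the size of the scatter.

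On average each of CecB and DptB fell further than each of AttD and Drs. CecB minus AttD was -1.63 ± 0.20 (SD, n = 3) after NELF dsRNA and -0.85 ± 0.18 (SD, n = 6) in the controls, a shift of -0.78. The shift was -0.81 for CecB minus Drs, -0.79 for DptB minus AttD and -0.82 for DptB minus Drs. In these 4 pairs every NELF dsRNA array lay below every control array, and each had an exact permutation p of 0.024, the smallest that 3 against 6 arrays can give, and an adjusted p of 0.036 over the 6 pairs. Against the 3 LacZ dsRNA arrays alone the shifts were -0.74, -0.57, -0.83 and -0.66, each with an exact permutation p of 0.10, the smallest possible with 3 against 3. The 6 control arrays pool 2 treatments, between which CecB stood at -0.41 and Drs at 0.08, LacZ dsRNA minus untreated. The 4 pairs share the same 4 genes and are not separate tests. Their adjusted p of 0.036 depends on all 4 being at the smallest possible p. The same arrays had already shown CecB and DptB as called and the others as uncalled against LacZ dsRNA, so these tests are not independent evidence of that grouping.

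**Figure D3:**
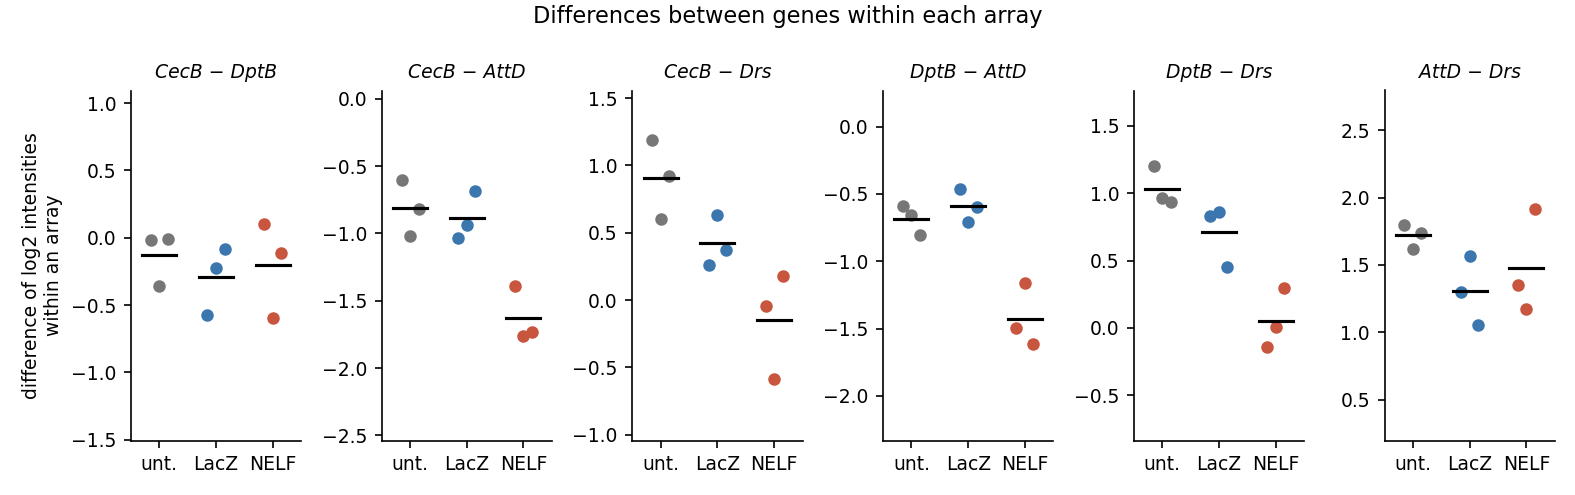
The difference of log2 intensities between 2 genes within each array (points) and its group mean (bars) for all 6 pairs, in untreated (unt.), LacZ dsRNA and NELF dsRNA cells. The 4 middle panels, which set CecB or DptB against AttD or Drs, show all 3 NELF dsRNA arrays below all 6 control arrays; the outer panels show overlap.

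Most other antimicrobial peptide genes were below the detection limit or could not be tested. Of 32 listed, 13 had a named probe set that could be tested in at least 1 comparison, and 4 of those lay above the detection limit on at least 2 untreated arrays: edin, Mtk, Drsl4 and Anp. The 9 dimmer ones were Def, Drsl1, Drsl3, BomS2, BomS4, BomS5, BomBc3, BomT2 and BomT3, and none of them passed in any comparison. Against LacZ dsRNA 1 of 12 tested fell, edin, and against untreated cells 2 of 12, edin and Mtk. Of all probe sets tested 2.71% and 3.53% were called lower there. The gene edin was counted in this list as one induced by infection, and antimicrobial activity of its product was not tested here. The median log2 changes of the 12 were 0.0019 and 0.33, and both rest mostly on the dimmer genes. Against LacZ dsRNA edin and Mtk stood at -0.87 and -0.19, and Drsl4 and Anp at 0.44 and 0.47. Against untreated cells edin, Mtk and Drsl4 stood at -1.02, -0.40 and -0.07, and Anp at 0.35.

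The gene edin, which encodes a small secreted protein induced by infection, read 10.42, 10.51 and 10.48 in untreated cells. It read 10.64, 10.22 and 10.10 after LacZ dsRNA and 9.36, 9.58 and 9.43 after NELF dsRNA, with no overlap between NELF dsRNA and either control group. The fall was 1.82-fold against LacZ dsRNA (log2 change -0.87, SE 0.11, limma adjusted p = 0.00013) and 2.02-fold against untreated cells (log2 change -1.02). LacZ dsRNA array 1 was again its highest LacZ dsRNA array.

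Mtk, the gene of the proline-rich peptide metchnikowin, averaged 9.23 in untreated cells, 9.01 after LacZ dsRNA and 8.83 after NELF dsRNA. It fell by 0.40 against untreated cells (limma adjusted p = 0.014), a call lost in 5 of 17 alternative settings: 3 that left out untreated array 1, untreated array 3 or NELF dsRNA array 2 (log2 change -0.35 to -0.47 over all single arrays left out), and 2 of the variance model and the floor. Against LacZ dsRNA it stood at -0.19 (limma adjusted p = 0.37), and at -0.09 without LacZ dsRNA array 1.

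Drsl4, a drosomycin-like gene, and Anp, the gene of andropin, a cecropin-like peptide of the male reproductive tract, had values above 0 against LacZ dsRNA, 0.44 and 0.47, that did not pass (limma adjusted p = 0.36 and 0.27). Against untreated cells Drsl4 stood at -0.07 and Anp at 0.35, and LacZ dsRNA minus untreated was -0.50 for Drsl4 and -0.12 for Anp, none of which passed. Anp neighbours the cecropin genes: in the order of protein-coding genes in the RefSeq table of Release 6 it comes 3 places before CecB, with CecA1 and CecA2 between them and CecC after CecB. CecA1, CecA2 and CecC had no probe set named for them alone here. Near Drs, kst had a value of 0.43 (limma adjusted p = 0.34), Ythdc1 one of 0.27 (limma adjusted p = 0.17) and CG12010 one of -0.14 (limma adjusted p = 0.72) against LacZ dsRNA. No tested gene among the 3 on either side of any of the 4 genes passed in NELF dsRNA against LacZ dsRNA. Over all probe sets tested there 4.56% were called, so no call among so few genes is near the background. CG43109, sano and Vha100-3 near DptB, CG14323 near AttD and Drsl1 near Drs lay below the detection limit wherever measured. CG14326 and CG14325 near AttD could not be tested in this comparison, and Anp was the only tested neighbour of CecB. These neighbours were looked up after the values of the 4 genes were seen.

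None of 14 tested genes of the Imd pathway, known as the main driver of CecB, DptB and AttD, passed limma's test in NELF dsRNA against LacZ dsRNA. The list held 17 genes, and PGRP-LC, Tak1 and eff had no named probe set that could be tested. Of the 14 tested, 3 passed at an unadjusted p under 0.05. The shares over all probe sets tested were 4.56% called and 14.9% at the unadjusted threshold, so a count of 0 among 14 is near the background. The median log2 change was 0.02. Rel, which encodes Relish, stood at -0.26, imd, the adaptor of the pathway, at 0.13, and IKKbeta, a kinase that acts on Relish, at -0.37, these 3 being named after their values were seen. Against untreated cells PGRP-LA, a peptidoglycan recognition protein, fell by 0.46 (limma adjusted p = 0.043) and akirin, a nuclear cofactor of Relish, rose by 0.37 (limma adjusted p = 0.034). Each of these calls held in 3 of 9 fits with a single array left out. Among 10 tested inhibitors of the pathway, with a median of -0.096, pirk alone was called against LacZ dsRNA: it read 8.72, 8.46 and 8.30 after LacZ dsRNA and 7.35, 7.47 and 7.68 after NELF dsRNA, a 1.98-fold fall (log2 change -0.99, SE 0.12, limma adjusted p = 6.4e-05).

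Of 12 tested Toll pathway genes 3 fell against LacZ dsRNA and none rose, where 2.71% of all probe sets tested were called lower. At an unadjusted p under 0.05 there were 7 of the 12, beside 14.9% of all probe sets tested, and the median log2 change was -0.23. Those that fell were GNBP3, a recognition protein for fungal glucans, by 0.93 (limma adjusted p = 5.4e-05), the receptor gene Tl by 0.96 and grass, a serine protease upstream of the receptor, by 0.67. The call of Tl was lost when its probe sets were averaged (limma adjusted p = 0.46). The NF-kappaB gene dl stood at -0.22 (limma adjusted p = 0.17) there and fell by 0.34 against untreated cells (limma adjusted p = 0.017), where its other probe set stood at -0.09 and did not pass. That call of dl held in 12 of 17 alternative settings and was lost without untreated array 1, untreated array 2 or NELF dsRNA array 2. None of 9 other regulators of antimicrobial genes passed limma's test against LacZ dsRNA (1 at an unadjusted p under 0.05). The shares over all probe sets tested were 4.56% and 14.9%, so these counts are near the background. Of the 9, 6 lay above the detection limit on at least 2 untreated arrays. Among them srp, a GATA factor of hemocytes, rose by 0.34 against untreated cells (limma adjusted p = 0.036), a call that held in 9 of 17 alternative settings. Of 4 other immune effectors 1 fell, where 2.71% of all probe sets tested were called lower. This was eater, a phagocytosis receptor, by 2.66 against LacZ dsRNA, a call lost without the variance trend and with the floor. Only Tep4 and eater of these 4 lay above the detection limit on at least 2 untreated arrays. These lists were chosen with earlier results of these arrays known.

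**Figure D4:**
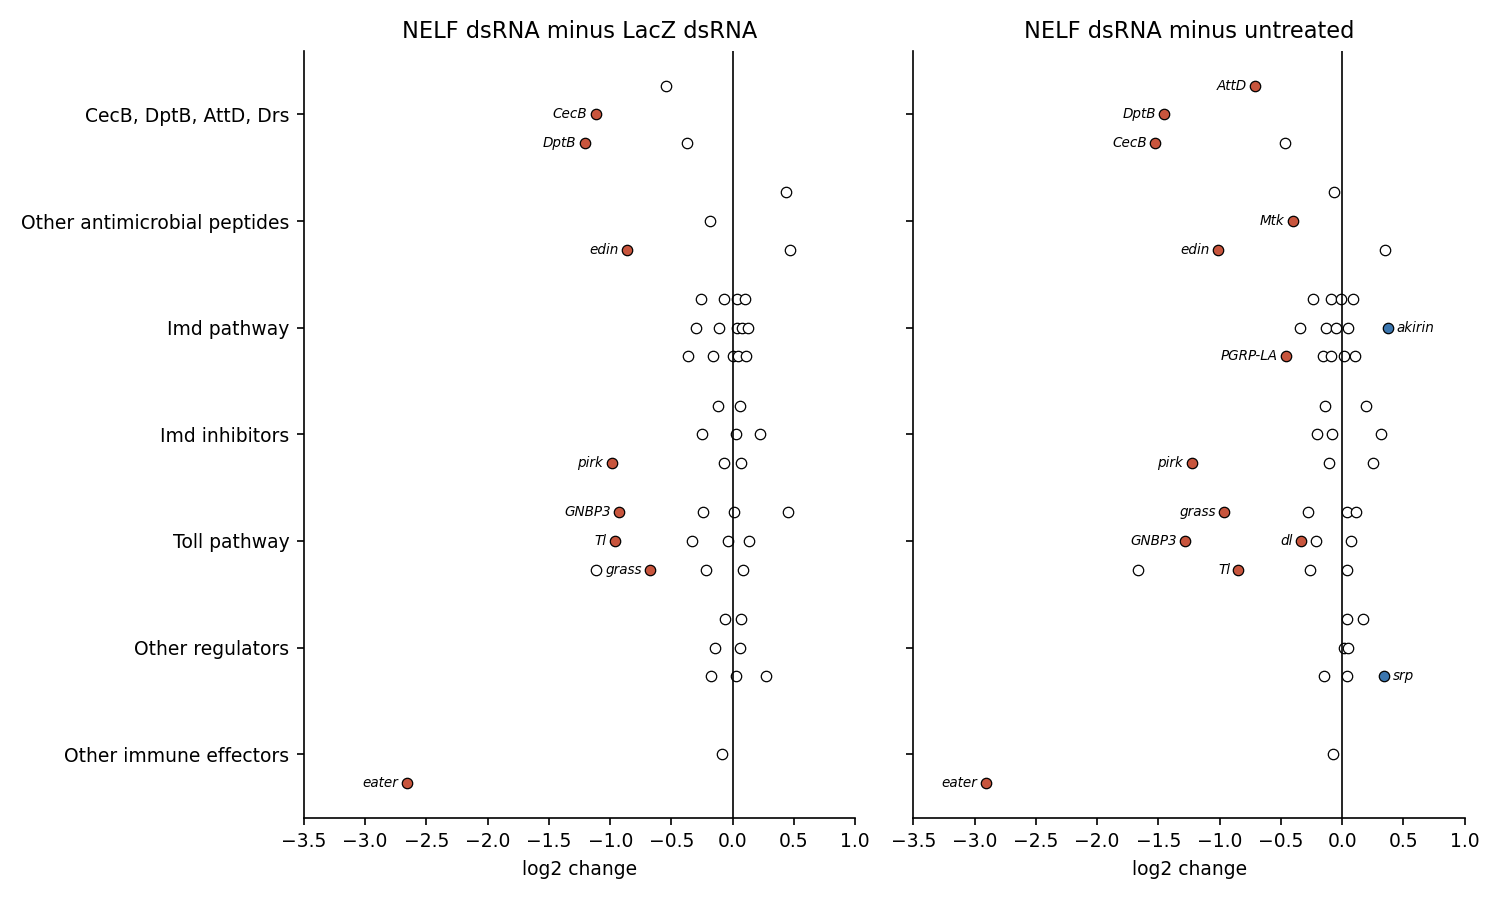
The log2 change after NELF dsRNA, against LacZ dsRNA (left) and against untreated cells (right), of CecB, DptB, AttD and Drs and of the genes of 6 lists whose highest group mean exceeded the detection limit. Each point is 1 gene, red where called lower, blue where called higher and open where not called, with vertical position within a list only for legibility; none of the Imd pathway genes was called on the left.

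The genes most like each of the 4 in their pattern were found by the root mean square difference of log2 values, each centred on its own mean, over the 9 arrays and among 5430 named genes measured on all arrays. For CecB they were Spn42Dc, a serpin gene, at 0.10, CG11400 at 0.10 and CG1998 at 0.13, where CecB itself departed from its mean by 0.66 and the median gene differed from it by 0.67. Against LacZ dsRNA Spn42Dc fell by 1.18, CG11400 by 1.14 and CG1998 by 1.25. They were picked for likeness to CecB over the same 9 arrays, so falls of this size follow from the choice and are given as a description. For DptB the most similar genes were EndoU, a gene of the EndoU family of endoribonucleases, at 0.15, CG6310 at 0.16 and again CG1998 at 0.19. Against LacZ dsRNA EndoU fell by 1.15 and CG6310 by 1.29, falls that follow from the choice as well. The call of EndoU was lost without the variance trend in limma (adjusted p = 0.051). The measure of CecB and DptB against each other was 0.24.

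For AttD the most similar genes were fuss, a transcriptional cofactor of the Ski and Sno family, at 0.10, PGRP-LA at 0.13 and CG2200 at 0.14. They were picked for likeness over the same 9 arrays, so calls that they share with AttD follow from the choice and are given as a description. None of these 3 passed against LacZ dsRNA, and against untreated cells fuss fell by 0.71 and CG2200 by 0.57. The call of fuss was lost without any 1 untreated array or NELF dsRNA array 1, and that of CG2200 held in 12 of 17 alternative settings, being lost without untreated array 1, untreated array 2 or NELF dsRNA array 1 among others. For Drs they were mTor, the growth-controlling kinase gene, at 0.15, CG8526 at 0.16 and the tetraspanin gene Tsp29Fb at 0.16. Only Tsp29Fb among these 3 passed against LacZ dsRNA, with a fall of 0.46 (limma adjusted p = 0.042), and that call was lost in 12 of 17 alternative settings.

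**Figure D5:**
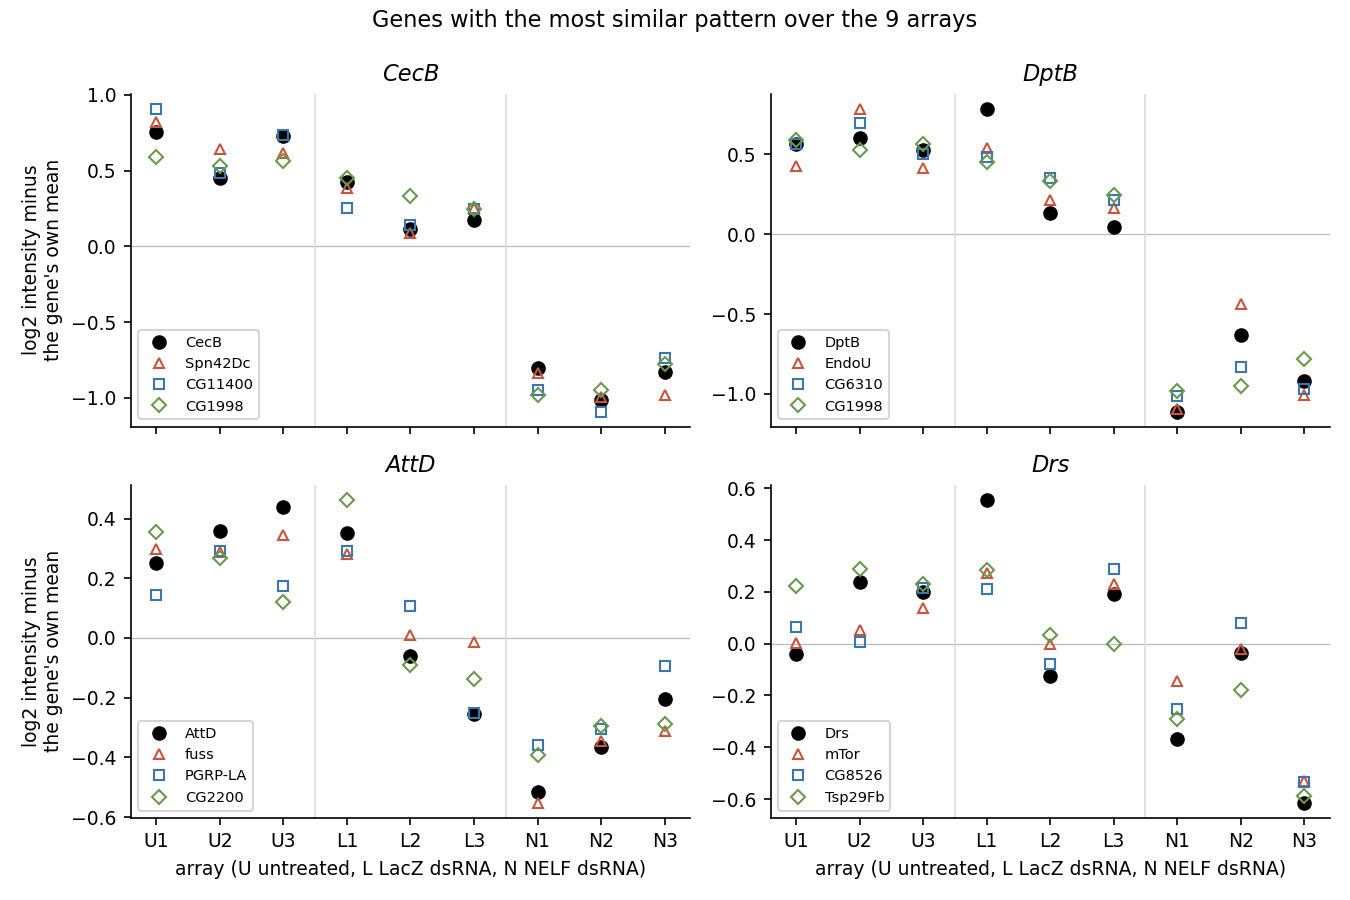
The log2 intensity minus the gene's own mean over 9 arrays for CecB, DptB, AttD and Drs (black points) and the 3 genes closest to each (open symbols), by array. In the panels of CecB and DptB every symbol lies below 0 on the 3 NELF dsRNA arrays and above 0 on the 6 control arrays; in the panels of AttD and Drs the NELF dsRNA symbols lie closer to the LacZ dsRNA ones.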

How the data were processed

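Expression was measured in S2 cells on 9 Affymetrix Drosophila Genome 2.0 arrays, 3 a group. The deposited values are log2 intensities, 1 per probe set and array, as processed by the authors; the base of 2 was inferred from their range (-16.3 to 13.6). Scanning used GeneChip Operating Software 1.2.0.037, per the labels' protocols, and Rosetta Resolver 6.0 is named in the design text; how probe sets were summarized and arrays normalized is not stated there. Leaving aside 95 control probe sets, 21.2% of values were empty and stayed missing. Array medians lay within 0.025 of each other, so no normalization was added.

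Gene names are those of the platform annotation, with symbols updated through gene identifiers (13086 with 1 gene, 389 with several, 4424 unnamed; 12988 matched the RefSeq gene table). Probe sets listing several genes named none. Group differences came from limma 3.58.1 in R 4.3.3 (lmFit, eBayes with a mean-variance trend, all 9 arrays), for probe sets with at least 2 values in both groups, with Benjamini-Hochberg adjustment over all of them and a threshold of 0.05. The fit was tested on simulated data. The detection limit, 3.77, is the 95th percentile of the control probe sets. A gene with more than 1 probe set is represented by its brightest. Pairs of the 4 genes were compared by exact permutation tests, two-sided.

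Named are the 4 genes, all other antimicrobial peptide genes tested, up to 4 called genes of each further list, the 3 genes of most similar pattern with a mean above 5.50 (the median of probe sets tested in NELF dsRNA against LacZ dsRNA), the targeted genes and, outside this rule, gene neighbours and 3 Imd pathway genes. The genes and lists were chosen with earlier results of these data known. No label ties a replicate to its own culture: p-values then measure only how far these arrays scatter, which may be technical. Batches were not tested, as scan dates are not used here, and the number of arrays limits the precision. Alternatives were the variance model, quantile normalization, a floor at the 10th percentile, a filter on dim probe sets, the choice of probe set, the groups in the fit, a replicate block, and arrays left out.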

Additional observations from a re-analysis of the deposited data

How the results depend on the processing

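The count of the 4 genes called lower stayed at 2 or 3 under 17 alternatives in NELF dsRNA against LacZ dsRNA and in NELF dsRNA against untreated cells, and at 0 in LacZ dsRNA against untreated cells. CecB and DptB passed in all 17 in both NELF dsRNA comparisons, with log2 changes of -1.18 to -1.02 and -1.35 to -0.96 against LacZ dsRNA. Without the variance trend the probe sets called numbered 228, 356 and 1 in the 3 comparisons, against 592, 799 and 7. Leaving out single arrays gave 426 to 697, 534 to 996 and 2 to 18, and leaving out the LacZ dsRNA and NELF dsRNA arrays with the fewest measured probe sets gave 22 between the control groups. The replicate numbers did not pair the arrays (correlations of same-numbered deviations from -0.11 to 0.10), and with a replicate block 2, 3 and 0 of the 4 genes and 529, 733 and 9 probe sets were called. Of the pairs of genes, 4 passed; 0 passed with the LacZ dsRNA arrays alone or with any single array left out (0 to 0), where the smallest possible p (0.10 with LacZ dsRNA alone, 0.036 or 0.071 with an array left out) kept these 4 pairs from passing after adjustment, and their shifts stayed below 0, from -0.98 to -0.57. The value of Tl against untreated cells turned to 0.26 when its probe sets were averaged, the other being below the detection limit in each group mean.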
